A study of Sus scrofa with 24 samples.

Results

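Circular RNAs (circRNAs) from ERBIN and AFDN, a pair of genes for scaffold proteins of cell junctions, were described in the spleen of Meishan pigs. The host gene of a circRNA is the RefSeq gene of build Sscrofa11.1 that has, on the same strand, exon ends within 1 base of both back-splice ends. By this rule 11 of the 3000 circRNAs of the count table were members, 10 from ERBIN and 1 from AFDN, and all 11 met exon ends exactly (0 bases apart). The spleens came from 24 healthy pigs of the Meishan breed, a Chinese indigenous breed, with 3 pigs at each of 8 stages. The youngest were 1 day old (1d), the next stages were days 7 to 35 (7d, 14d, 21d, 28d and 35d), and the oldest pigs were 120 (120d) and 180 (180d) days old. No treatment or mutation was involved, the sex of the animals is not given in the labels, and each stage was compared with 1d as the control, or followed as a trend over all ages. Whole spleen was sequenced, so the values mix all of its cell types, and fewer cells of a type cannot be told apart from less RNA per cell.

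A circRNA forms when the end of an exon is spliced backwards to the start of the same or an earlier exon, and the only reads that count for it here are those that cross this junction. ERBIN encodes erbin, a protein with leucine-rich repeats at its N-terminus and a PDZ domain at its C-terminus, which binds the receptor ERBB2 at the basolateral membrane of epithelia and dampens RAS and TGF-beta signalling. AFDN encodes afadin, which holds nectins to the actin skeleton at adherens junctions and binds the small GTPases RAS and RAP1 through its Ras-association domains.

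The junctions of 6 circRNAs that the results turn on are shown here, because the junction is the stretch that the reads had to cross and because circRNAs with a common exon end can be told apart only there. Each line gives 15 bases in lower case from the end of the last exon, followed by the first 15 bases of the first exon in capitals, 5′ to 3′ on the strand of the gene, read from the RefSeq genome of build Sscrofa11.1.
circRNA_00031 (AFDN): ggcgccctgattccgGATTTGGAATTCCAT
circRNA_17835 (ERBIN): gacagcttgatgaaaATGATACAAAGGATA
circRNA_17839 (ERBIN): gacagcttgatgaaaACAAGAAGATGAAAA
circRNA_17837 (ERBIN): aaaaagttagaaaagACAAGAAGATGAAAA
circRNA_17822 (ERBIN): gatgatgtttttgagGTTAATATCAATAGA
circRNA_17820 (ERBIN): ctctcagataatcagGTTAATATCAATAGA
The left sides of circRNA_17835 and circRNA_17839 are the same, since both end at exon 24. The capitals of circRNA_17839 and circRNA_17837 are the same, since both begin at exon 22, and circRNA_17822 and circRNA_17820 both begin at exon 13. None of the 11 junctions occurred as a contiguous run in the genome (0 matches each), and the introns beside all 11 carried the splice signals ag and gt.

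ERBIN lies on the plus strand at chr16:44415106-44533353 and has 28 exons in the reference transcript used for numbering, 1 of 23 annotated. Its 10 circRNAs spanned 19 of the 28 exons and fell into 3 separate stretches of overlapping exons. Only the junctions were read, so the exons between the 2 ends of a circRNA are those of the reference transcript and were not observed. The first stretch, exons 2 to 9, held circRNA_17791 (chr16:44432764-44455050, exons 2 to 5, with the start codon), circRNA_17799 (chr16:44446274-44455050, exons 3 to 5) and circRNA_17806 (chr16:44454933-44473184, exons 5 to 9). The middle stretch, exons 13 to 19, held circRNA_17820 (chr16:44484459-44486773, exons 13 to 15), circRNA_17821 (exons 13 to 16), circRNA_17822 (chr16:44484459-44506007, exons 13 to 19) and circRNA_17826 (chr16:44486704-44505404, exons 15 to 18). The last stretch, exons 21 to 24, held circRNA_17835 (chr16:44513270-44525240, exons 21 to 24), circRNA_17837 (chr16:44515801-44517349, exon 22 alone) and circRNA_17839 (chr16:44515801-44525240, exons 22 to 24), so that all 3 spanned exon 22.

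Exon 22 of ERBIN is 1549 nt long, against a median of 117 nt over its exons. If all exons between the ends are kept, the 3 circRNAs with it were among the long ones of the table. After removal of introns the lengths were then 1997 nt for circRNA_17835, 1813 nt for circRNA_17839 and 1549 nt for circRNA_17837. The median over 2838 circRNAs was 432 nt, and 98.84%, 98.31% and 97.29% of them were shorter than these 3. All 3 lie within the coding sequence, where they span residues 670 to 1335 of the 1496 residues of erbin at their widest, and none of the 10 ERBIN circRNAs holds the stop codon. These lengths and residues follow the reference transcript. Both ends of circRNA_17835 and of circRNA_17839 are present in 12 of the 23 annotated transcripts.

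AFDN lies on the minus strand at chr1:1569652-1698475 with 35 exons and 17 annotated transcripts. Its only circRNA in the table, circRNA_00031 (chr1:1654692-1663793), joins exon 5 back to exon 2, and both ends were present in 17 of the 17 transcripts. With all exons between its ends kept, it is 637 nt long, with a GC content of 49.3%. It then spans the codons of residues 36 to 248 of 1873, in the N-terminal part of afadin. A start at exon 2 is common, since 27.4% of the circRNAs in the table began there.

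**Figure D1:**
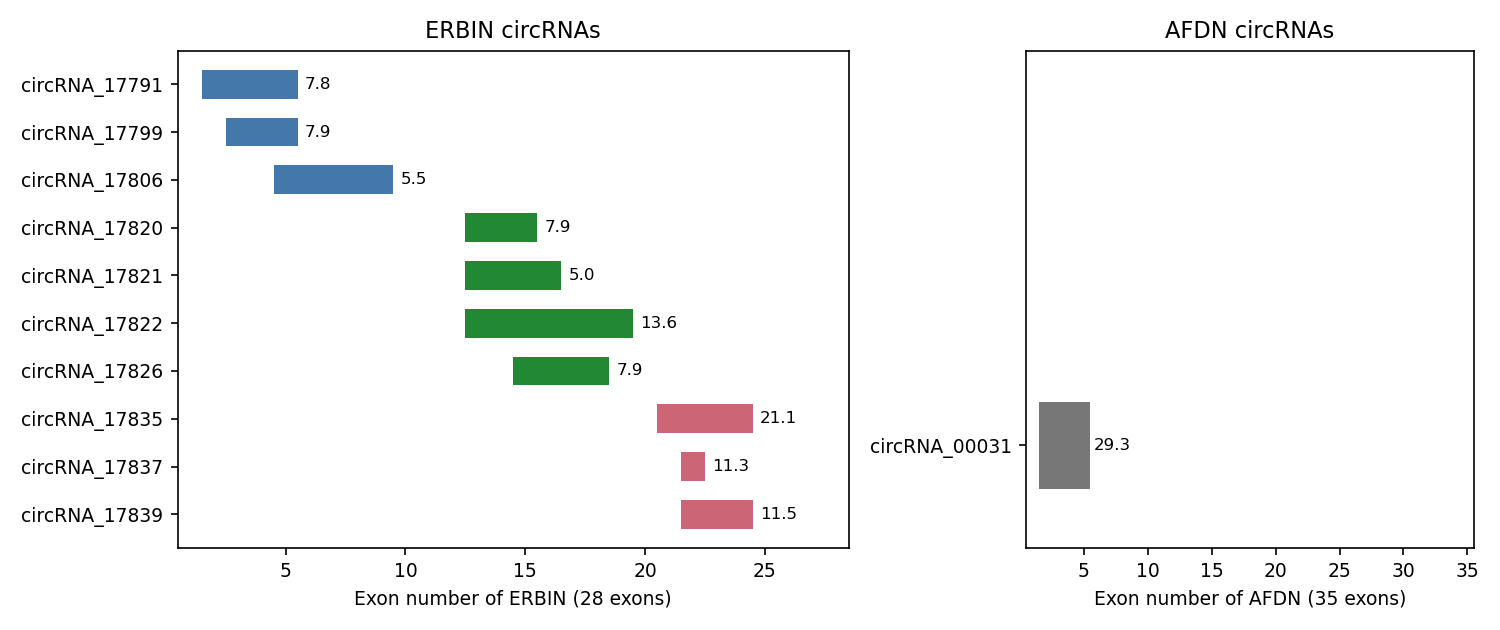
Exons of ERBIN (left) and AFDN (right) spanned by each circRNA in the reference transcript, drawn by exon number and not to genomic scale. The number beside a bar is the mean level over 24 libraries in TMM-normalized back-splice reads. The ERBIN circRNAs form 3 separate stretches (exons 2 to 9, 13 to 19 and 21 to 24), and the highest level, 21.1, belongs to circRNA_17835 in the last.

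The upstream intron set the exon 13 circRNAs apart, while their downstream introns did not. The latter had 10595 nt for circRNA_17820, 6829 nt for circRNA_17821 and 4520 nt for circRNA_17822. These lengths lie between the quartiles of the table (2681 and 14858.8 nt). The intron before exon 13 has 569 nt, and only 2.23% of the circRNAs in the table had a shorter one upstream, while the median was 7657 nt. The intron after circRNA_17826 is shorter still, with 417 nt. By contrast, the AFDN circRNA sits between introns of 34550 nt and 15368 nt, and 89.5% of the upstream introns were shorter. Complementary stretches of at least 100 nt between the flanking introns were searched in the 1000 nt next to each end. Shorter introns were searched in full (569 nt before exon 13 and 417 nt after circRNA_17826). Such stretches were found for 3 of the 11 circRNAs. These were circRNA_17835 with a longest stretch of 252 nt (75% identity), circRNA_17839 with 130 nt (78.5%) and circRNA_00031 with 129 nt (76.7%). Among all 2827 circRNAs with an intron on both sides, 960 (34%) had such a stretch, so a share of 3 of 11 is near the background.

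The libraries held between 16273 and 87867 back-splice reads in the table, with the lowest totals at 1d (16273 to 23752) and the highest at 120d (71092 to 87867). Counts of 1 do not occur in the table, so that 0 can stand for a single read. All levels below were divided by the library size with the TMM factor of edgeR and brought back to a common size, and each is a count of reads over 1 junction, so exon length does not enter. This scaling compares a circRNA with the other circRNAs of its library. When the clean reads of the library were used as the depth, the median slope of all 3000 circRNAs moved from 0.03 to 0.25 log2 units per doubling of age, and the median difference between 180d and 1d from 0.20 to 1.27, so the changes given below are relative to the other circRNAs. Of the defining markers of cell types, few had a circRNA in the table, 1 of 17 for T and NK cells (LEF1), 1 of 10 for macrophages (ADGRE1), 3 of 14 for B cells, 4 of 14 for erythroid cells and 0 of 17 for stromal cells, so that the labelled tissue could be checked only in part.

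Within the table, ERBIN was among the host genes with the most circRNAs and the most reads. The rule that chose the circRNAs of the table is not given, so the ranks hold for the table only. Of 1670 host genes 2 had more circRNAs than ERBIN, and 4 (ERBIN included) had 10. Its 10 circRNAs together had 2603 reads and a mean of 99.6 normalized reads per library, which was rank 54 of 1670. AFDN, with a mean of 29.5 and 708 reads, was at rank 299, and its circRNA was at rank 227 of 3000 circRNAs. The single ERBIN circRNAs were spread from 21.1 for circRNA_17835 down to 5.05 for circRNA_17821, around a median of 6.88 over all circRNAs.

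The AFDN circRNA had its highest mean on the first day of life. In normalized reads, the 1d libraries of circRNA_00031 held 33.8, 44.4 and 87.4, the 7d libraries 24.9, 36.5 and 31.9, the 14d libraries 15.4, 29.98 and 28.7, and the 21d libraries 26.1, 25.2 and 42.1. The 28d libraries held 28.8, 25.5 and 13.97, the 35d libraries 23.8, 32.6 and 25.3, the 120d libraries 17.4, 19.7 and 25.2, and the 180d libraries 23.5, 17.2 and 23.997. Every library of 120d and 180d lay below every library of 1d, and of the 21 libraries after 1d, 2 were above the lowest of 1d. Replicate 3 of 1d, at 87.4, stood far above the other two.

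The stage means of circRNA_00031 went from 55.2 ± 28.4 (SD, n = 3) at 1d to 31.1 ± 5.81 at 7d. The means of the oldest pigs were 20.8 ± 3.99 (120d) and 21.6 ± 3.76 (180d). The slope on log2 age was -0.18 per doubling of age (SE 0.04, 95% interval -0.26 to -0.11, adjusted p = 0.000326, edgeR quasi-likelihood test with Benjamini-Hochberg adjustment over 3000 circRNAs). A fall with age was called for 2 of the 11 circRNAs, circRNA_00031 and circRNA_17837, against 5.77% of all circRNAs (16.5% in either direction). In the test over the 8 stages together, circRNA_00031 was the only member called (adjusted p = 0.0128 by edgeR; 0.493 without 1d replicate 3), against 8.97% of all circRNAs.

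Against 1d, circRNA_00031 fell 2.69-fold at 120d (log2 difference -1.43, SE 0.32, adjusted p = 0.00207 by edgeR) and 2.60-fold at 180d (-1.38, SE 0.33, adjusted p = 0.00328). It also passed the threshold at 28d (-1.27, SE 0.33, adjusted p = 0.0239), where it was 2.41-fold lower. A call here needed an adjusted p under 0.05 and a change of at least 2-fold, which 0.3% of all circRNAs met as a fall by 28d, 1.47% by 120d and 3.4% by 180d. The other stages did not pass for circRNA_00031. Its log2 difference was -0.86 for 7d (adjusted p = 0.349 by edgeR, background for a fall 0%), -1.18 for 14d (0.112, background 0%), -0.83 for 21d (0.236, background 0.0333%) and -1.03 for 35d (0.0684, background 0.267%). All of these comparisons share the 1d libraries. No pair of stages that left out 1d was called for it, where 16% of all circRNAs had at least 1 such pair. The interval between 180d and 7d, for example, ran from -1.22 to 0.17.

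The size of the fall of circRNA_00031 rested on the 1d libraries. Without 1d replicate 3 the slope was -0.12 (adjusted p = 0.0431 by edgeR), and the differences from 1d were -0.72 (28d, adjusted p = 0.362), -0.90 (120d, 0.129) and -0.83 (180d, 0.157), so that no single stage was called. Without 28d replicate 3 the call at 28d was also lost (-1.05, adjusted p = 0.132), as it was when all libraries were thinned to the same total, an alternative chosen after seeing the data (-1.39, 0.0591). With all of 1d left out, a choice made after seeing the data, the slope over the other 7 stages was -0.11 (adjusted p = 0.177).

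Since AFDN has 1 circRNA in the table, its host total differs only in the scaling over host genes. The total of AFDN passed the test at the same stages and also at 35d (-1.09, adjusted p = 0.0367 by edgeR). Of 1670 host genes, 0.659% were called as a fall by 28d, 0.838% by 35d, 2.81% by 120d and 5.27% by 180d. Without 1d replicate 3 none of the 4 calls held (adjusted p of 0.241, 0.446, 0.0567 and 0.0796 in the order of age), and the call at 28d also needed 28d replicate 3 (0.0913 without it). The call at 35d was lost without any of the 35d libraries (0.113, 0.0623 and 0.145), and in 4 of 10 other alternatives. These were clean reads as the depth (0.07, adjusted p = 0.886), the 17 libraries with a share of valid bases in the study's library table of at least 0.96, with 1 library left at 35d (-1.32, 0.386), and the GC content (-1.14, 0.141) or the valid-base share (-1.31, 0.0694) as a covariate. With clean reads as the depth none of the calls against 1d held for the AFDN circRNA or the total, and the circRNA had a slope of 0.03 (adjusted p = 0.601), 0.22 below the median of all circRNAs under that scaling.

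**Figure D2:**
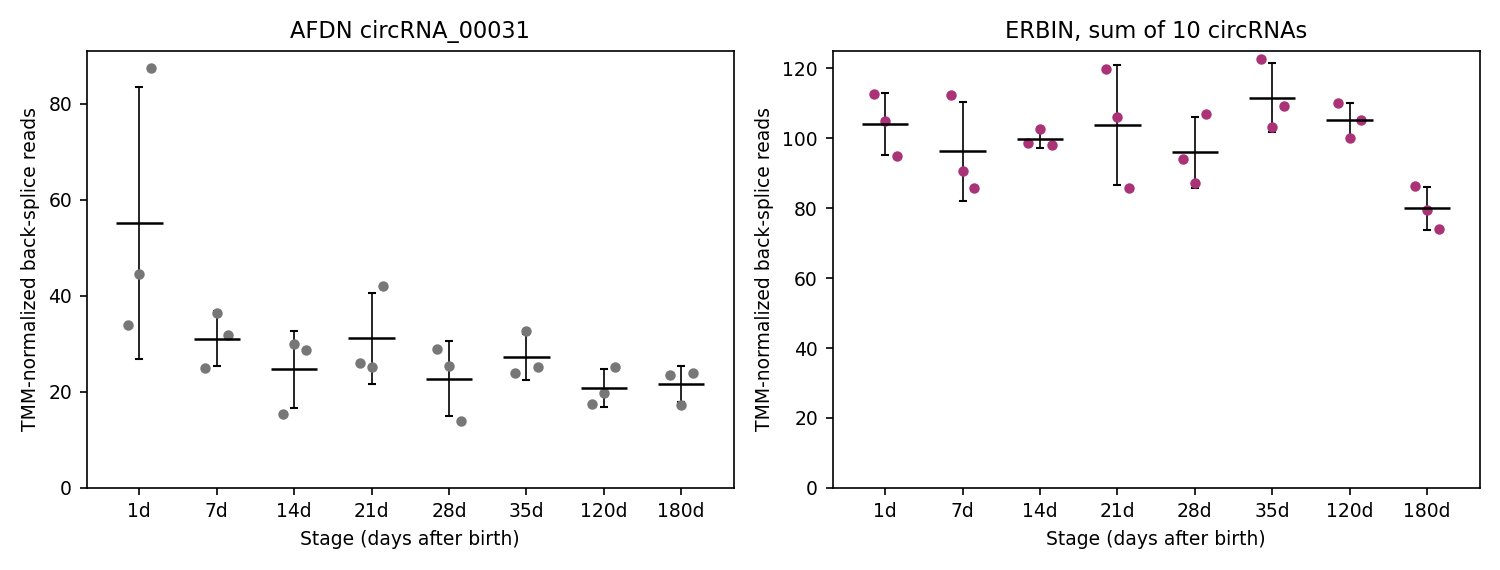
TMM-normalized back-splice reads of AFDN circRNA_00031 (left) and of the sum over the 10 ERBIN circRNAs (right) by stage; points are libraries (3 per stage), bars the mean and whiskers the SD. AFDN falls from a mean of 55.2 at 1d to 20.8 at 120d, with 1 library of 1d at 87.4, while the means of ERBIN lie between 79.98 and 111.7.

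Under the TMM scaling, the summed level of ERBIN moved far less. Its mean in normalized reads was 104.2 ± 8.83 (SD, n = 3) for 1d, 96.3 ± 14.1 for 7d, 99.8 ± 2.50 for 14d, 103.9 ± 17.2 for 21d and 96.0 ± 10.1 for 28d. The last stages had means of 111.7 ± 9.94 (35d), 105.2 ± 5.07 (120d) and 79.98 ± 6.14 (180d). The 3 libraries of 180d, at 86.4, 79.4 and 74.1, overlapped with the lowest of the earlier stages (85.7). No test called the total. The slope of the ERBIN total was -0.02 per doubling of age, with an interval of -0.07 to 0.02 (adjusted p = 0.555 by edgeR, background 23.3%), and the adjusted p over the 8 stages was 0.574 (background 14.6%). Between 120d and 1d the difference was 0.02 with an interval of -0.35 to 0.38. Under this scaling only, that leaves out a change of 2-fold in either direction. Between 180d and 1d it was -0.38 (interval -0.76 to -0.00, adjusted p = 0.177 by edgeR), and none of the 28 pairs of stages was called (24.3% of host genes had at least 1 called pair). Across the 24 libraries the totals of ERBIN and AFDN were almost unrelated on the log2 scale (Pearson r = -0.0764, Spearman rho = -0.119, given as a description).

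The single ERBIN circRNAs did not share a direction. On log2 age 6 of the 10 had a slope above 0 and 4 below, with a median of 0.06 against 0.03 for all 3000 circRNAs. At 120d against 1d, 7 of 10 were above 0 (median 0.28, all circRNAs 0.26) and none was called. At 180d, 4 of 10 were above 0 (median -0.23, all circRNAs 0.20) and 1 was called. The circRNAs below 0 in slope were those of exons 21 to 24 and circRNA_17826.

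circRNA_17835, the most abundant ERBIN circRNA, was lowest at 180d. The 1d libraries held 37.8, 24.7 and 18.1 normalized reads of it, the 7d libraries 23.5, 16.4 and 20.8, the 14d libraries 29.6, 20.7 and 23.7, and the 21d libraries 35.5, 17.4 and 21.4. The 28d libraries held 25.9, 12.3 and 13.97, the 35d libraries 24.9, 15.6 and 29.7, the 120d libraries 27.8, 17.4 and 21.3, and the 180d libraries 10.7, 6.47 and 10.5. The 3 libraries of 180d were the 3 lowest of all 24, with 10.7 as their highest value and 12.3 as the lowest of the other 21.

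Against 1d, circRNA_17835 fell 2.88-fold at 180d (log2 difference -1.53, SE 0.41, adjusted p = 0.0102 by edgeR). It also fell at 180d against 14d (-1.42, SE 0.40, adjusted p = 0.0258, background for a fall 1.87%) and against 21d (-1.42, SE 0.39, adjusted p = 0.0290, background 1.87%). These 3 comparisons share the 180d libraries. The differences of 180d from the other stages were -1.15 from 7d (adjusted p = 0.0567 by edgeR), -0.93 from 28d (0.436), -1.35 from 35d (0.136) and -1.28 from 120d (0.312), and the slope over all ages was -0.11 (adjusted p = 0.119). The call against 1d was lost without 1d replicate 1 (-1.22, adjusted p = 0.103) and without 180d replicate 2 (-1.31, adjusted p = 0.0716). The call against 14d needed each of 4 libraries, replicates 1 and 3 of 14d and replicates 2 and 3 of 180d (adjusted p without each 0.114, 0.0613, 0.167 and 0.0562). The call against 21d was lost without 21d replicate 1 or any of the 3 libraries of 180d (adjusted p = 0.301, 0.0655, 0.1997 and 0.0562). Each of these 2 calls was also lost in 4 of 10 alternatives. Against 14d these were clean reads as the depth (adjusted p = 0.241 by edgeR), the libraries of at least 0.96 valid bases (0.523), the valid-base share as a covariate (0.0536) and thinning (0.0973). Against 21d they were clean reads (0.2098), the libraries of at least 0.96 valid bases (0.565), the GC content as a covariate (0.06695) and thinning (0.181). The call against 1d was lost in 2 of 10, with clean reads (-0.42, adjusted p = 0.488) and with the libraries of at least 0.96 valid bases (-1.33, 0.302), which leave 1 library at 180d. The log2 difference stayed below 0 in all of these fits.

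circRNA_17837, which is exon 22 closed on itself, had its lowest means at 120d and 180d. The 1d libraries held 21.9, 18.1 and 13.6 normalized reads of it, the 7d libraries 11.7, 9.12 and 6.39, the 14d libraries 10.6, 11.4 and 12.5, and the 21d libraries 21.9, 15.6 and 8.13. The 28d libraries held 10.6, 7.02 and 15.2, the 35d libraries 19.5, 11.4 and 8.17, the 120d libraries 7.06, 3.48 and 7.75, and the 180d libraries 8.54, 7.19 and 3.75. All libraries of 1d were above all libraries of 120d and 180d, while the stages between overlapped with both.

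The slope of circRNA_17837 was -0.18 per doubling of age (SE 0.06, interval -0.30 to -0.07, adjusted p = 0.0234 by edgeR). The differences from 1d, -1.50 at 120d and -1.46 at 180d, were of the size of those of the AFDN circRNA and missed the threshold (adjusted p = 0.0503 and 0.0620 by edgeR). The call of the slope needed replicate 1 of 1d, replicate 2 of 120d and replicate 3 of 180d, since it was lost without each of them (adjusted p = 0.0665, 0.0542 and 0.0598), and in the fits that left out all libraries of 1d (-0.22, adjusted p = 0.108), of 120d (-0.15, 0.134) or of 180d (-0.16, 0.116). It was also lost with clean reads as the depth, where the slope was 0.04 (adjusted p = 0.6499 by edgeR), with the libraries of at least 0.96 valid bases (-0.11, 0.472), with the valid-base share as a covariate (-0.15, 0.144) and after thinning (-0.20, 0.139), so that the call held in 11 of 18 alternatives.

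circRNA_17839, which begins like circRNA_17837 and ends like circRNA_17835, passed no test. The 1d libraries held 13.9, 14.8 and 10.5 normalized reads of it, the 120d libraries 12.7, 12.2 and 11.6, and the 180d libraries 6.404, 8.62 and 3.75. The stages 1d and 180d did not overlap. Its highest library, at 24.9, belonged to 7d. The difference between 180d and 1d was -1.04 with an interval of -2.08 to 0.00 (adjusted p = 0.216 by edgeR), and the slope was -0.08 (interval -0.20 to 0.03).

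In the middle stretch the most abundant circRNA, circRNA_17822, had its lowest mean at 1d. The 1d libraries held 11.9, 4.94 and 7.53 normalized reads of it, the 7d libraries 14.7, 7.29 and 6.39, the 120d libraries 12.2, 15.7 and 13.6, and the 180d libraries 19.2, 9.34 and 17.2. Its mean was 8.14 at 1d and 15.3 at 180d, and the libraries of these stages overlapped. The slope of circRNA_17822 was 0.10 (interval -0.00 to 0.21, adjusted p = 0.184 by edgeR), and the difference between 180d and 1d was 0.91 (interval -0.09 to 1.91, adjusted p = 0.270). The other circRNAs of this stretch had slopes of 0.20 for circRNA_17821 (adjusted p = 0.143 by edgeR), 0.06 for circRNA_17820 and -0.01 for circRNA_17826. The 3 circRNAs at the 5′ end of the gene had slopes of 0.09 for circRNA_17791, 0.07 for circRNA_17799 and 0.08 for circRNA_17806, with adjusted p between 0.405 and 0.580. Of the 240 values of ERBIN circRNAs 11 were 0, and all 11 were in libraries of 1d to 21d.

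**Figure D3:**
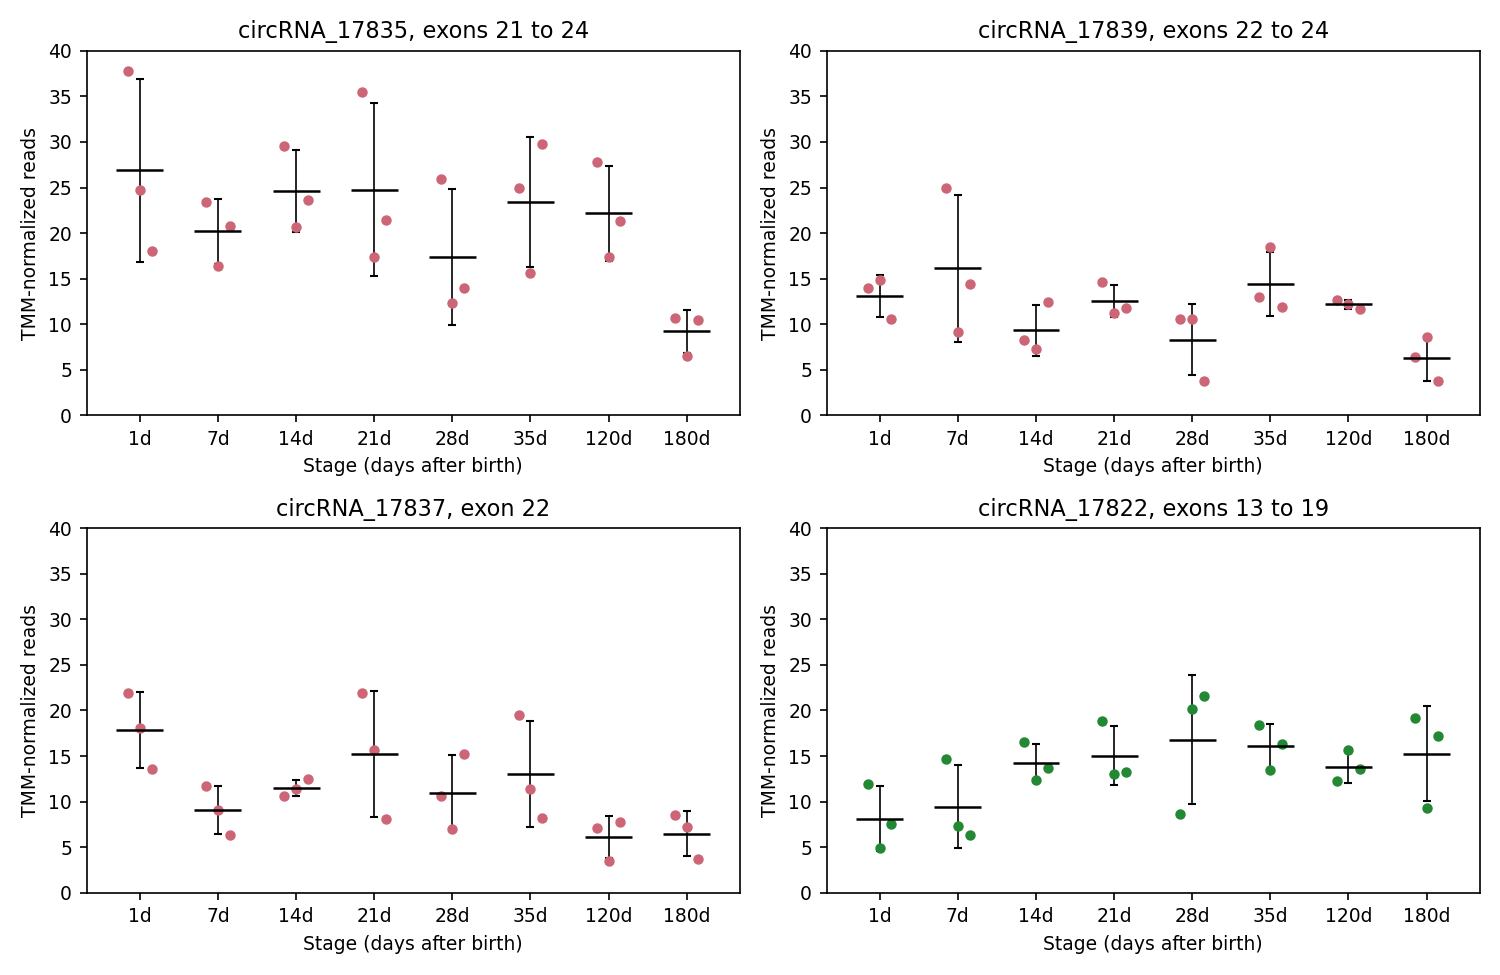
TMM-normalized back-splice reads by stage for the 4 most abundant ERBIN circRNAs on 1 common scale; points are libraries (3 per stage), bars the mean and whiskers the SD. circRNA_17835 is at 6.47 to 10.7 at 180d, below all other libraries, circRNA_17837 is lowest at 120d and 180d, and circRNA_17822 has its lowest mean at 1d.

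The makeup of the ERBIN circRNAs was not the same at the first and the last stage. Over all libraries the circRNAs of exons 21 to 24 held 42.0% of the ERBIN reads, those of exons 13 to 19 held 35.8% and those of exons 2 to 9 held 22.2%. The share of exons 21 to 24 was 56.7% ± 11.4 (SD, n = 3, range 45.9 to 68.5) at 1d and 26.9% ± 2.97 (range 23.8 to 29.6) at 180d. Its means for 7d, 14d, 21d, 28d and 35d were 48.2%, 45.7%, 49.9%, 38.6% and 45.0%, and for 120d 36.8%. All 3 libraries of 180d were below the lowest of the other 21 (31.3%). The share of exons 13 to 19 went from 28.9% at 1d to 47.0% ± 2.17 at 180d, and that of exons 2 to 9 from 14.5% to 26.0%. These stretches were grouped with their values known and are given without a test. The shares of each library add up to 100, so a lower share in 1 stretch means a higher share elsewhere.

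**Figure D4:**
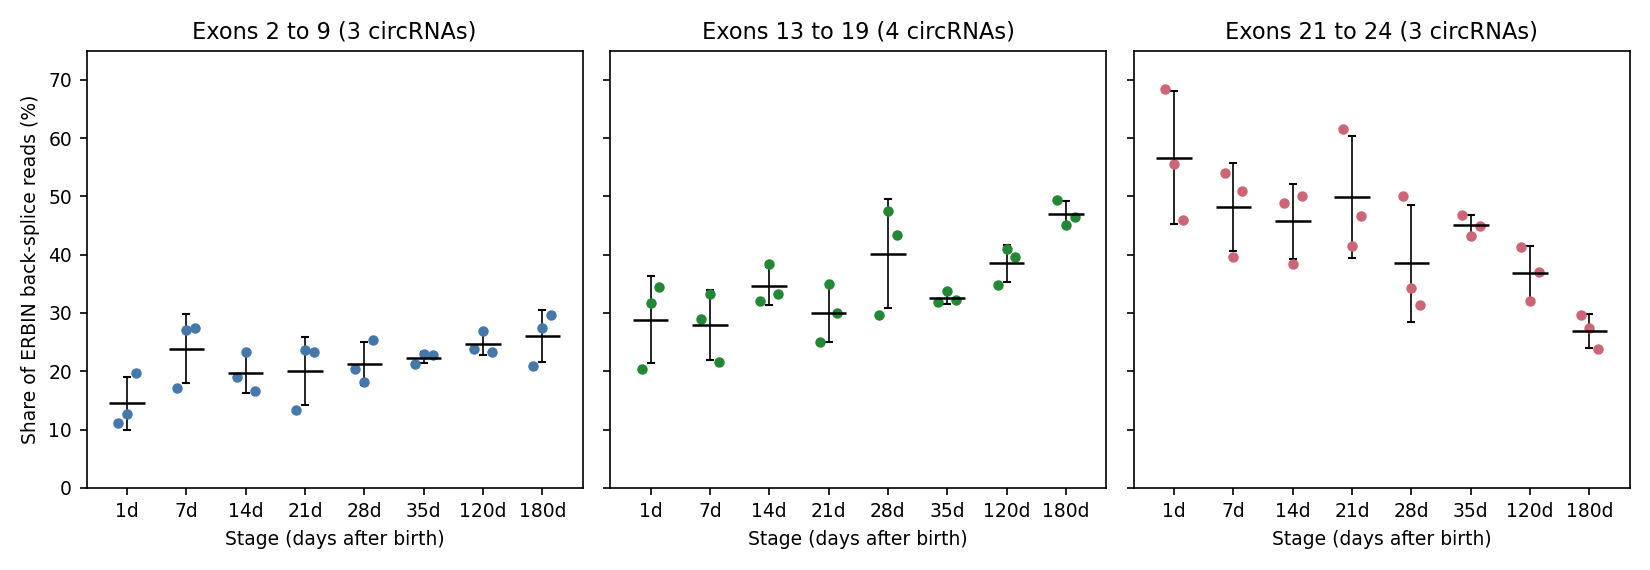
Share of all ERBIN back-splice reads held by the circRNAs of each stretch of exons, in percent, by stage; points are libraries (3 per stage), bars the mean and whiskers the SD. The share of exons 21 to 24 is 45.9 to 68.5% at 1d and 23.8 to 29.6% at 180d, and the share of exons 13 to 19 is 47.0% at 180d.

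Single circRNAs were tested for a slope that differed from that of their gene. The edgeR test of exon usage, run on the circRNAs of each host gene in place of exons, called none of the 10 (0 of 10, background 0.224% of 1784 circRNAs). The circRNAs with an unadjusted p under 0.05 in it were circRNA_17837 (slope against the gene -0.17, adjusted p = 0.240), circRNA_17835 (-0.10, adjusted p = 0.625) and circRNA_17821 (0.21, adjusted p = 0.509). The Simes p of this test for the whole gene was 0.473 after adjustment over 612 host genes (background 0.163%), while its F test, chosen after seeing the data, gave an adjusted p of 0.0300 (background 2.94%). The F test was no longer past the threshold without any of 6 libraries, 1d replicate 1, 7d replicate 1, 120d replicate 2 and the 3 of 180d (adjusted p up to 0.182), nor with only the libraries of at least 0.96 valid bases (0.904) or when all libraries were thinned to the same total (0.598). A permutation of the ages over the libraries (100000 permutations, two-sided) called circRNA_17837, whose share fell by 1.28 percentage points per doubling of age (adjusted p = 0.0326, background 4.81% of 1560 circRNAs). It did not call circRNA_17835 (-1.54 points, adjusted p = 0.0894), circRNA_17822 (1.19 points, 0.0716) or circRNA_17821 (0.73 points, 0.0838). The totals of the libraries and the zeros among the ERBIN circRNAs moved with age as well, and their part in the shares was not tested.

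The choice between junctions that share an exon end showed no steady course. Of the reads that begin at exon 22 in circRNA_17837 or circRNA_17839, the former held 57.4% (1d), 35.4% (7d), 55.6% (14d) and 53.8% (21d). Its part was 54.4% (28d), 45.5% (35d), 33.9% (120d) and 50% (180d) at the later stages. Of the reads that end at exon 24, circRNA_17835 held between 55.1% and 72.7% at all stages. These are sums over 3 libraries of a stage, between 17 and 50 reads of circRNA_17837 in the first 4 stages, and were not tested.

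Other genes of the pathways of erbin and afadin were read from their own circRNA totals. Of 30 polarity and PDZ scaffold genes 4 were in the table (DLG1, DLG5, PARD3 and PRKCI), and none was called in the slope, in 180d against 1d (background 12%) or in 120d against 1d (background 7.84%). PARD3, a scaffold of the polarity complex, was at a mean of 13.5 ± 1.07 at 1d and 18.9 ± 7.03 at 180d. Of 27 adherens junction genes 2 were measured and none was called, with NECTIN3, a nectin bound by afadin, at 38.7 ± 15.6 at 1d and 24.9 ± 3.79 at 180d (log2 difference -0.66, adjusted p = 0.217 by edgeR).

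Of 27 genes of RAS and RAP1 signalling, which both proteins touch, 10 were measured, and in the slope 2 rose, none fell and 8 did not pass, against 23.3% called over all host genes, so the share of the list was not above the background. None of the 10 was called in 180d against 1d or in 120d against 1d. The genes called in the slope were RASA2, a RAS GTPase-activating protein (0.15 per doubling, SE 0.04, adjusted p = 0.00125 by edgeR), and RRAS2, a RAS-related GTPase (0.27, SE 0.07, adjusted p = 0.00559). RASA2 was at 35.3 ± 9.999 at 1d and 70.1 ± 15 at 180d, a pair that was not called since the change was under 2-fold (log2 difference 0.96, adjusted p = 0.0169 by edgeR). The slope call of RASA2 was lost without the 180d libraries (adjusted p = 0.0587) and with the libraries of at least 0.96 valid bases (0.123). That of RRAS2 was lost without the 120d libraries (0.0531), with the libraries of at least 0.96 valid bases (0.4095) and with the valid-base share as a covariate (0.0795). SHOC2, the RAS pathway scaffold that erbin binds, was at 11.9 ± 5.03 and 8.15 ± 2.50. Of 19 genes of ERBB2 and TGF-beta receptor signalling 4 were measured (SMAD2, SMAD4, TGFBR1 and TGFBR2), and none was called. SMAD4, the common SMAD, was at 142.4 ± 30.6 at 1d and 124.0 ± 7.17 at 180d.

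The host genes whose totals followed ERBIN most closely over the 24 libraries, among 864 with a mean of at least 10, were DYNC1LI1 (r = 0.628), SNX27 (0.607), TTK (0.606), IGF2BP3 (0.570) and PUM2 (0.566). Those nearest to AFDN were ELF2 (r = 0.708), PLCE1 (0.684), WDR33 (0.681), ZZZ3 (0.664) and S100PBP (0.633). These r values are descriptions on the log2 scale over libraries that share their depth and stage. Within stages, after removal of the stage means, they were between 0.234 and 0.392 for AFDN and between -0.0171 and 0.550 for ERBIN.

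Markers of some other cells moved over the same ages. The only measured marker of T and NK cells, LEF1, was not called in the slope (adjusted p = 0.411 by edgeR). Neither was ADGRE1, the only one of macrophages (0.632). The 4 measured erythroid markers (EPB41, TFRC, TFDP2 and SOX6) all fell in the slope, against 9.46% of host genes, and their summed level was 155.7 to 191.8 normalized reads in the 1d libraries, 226.1 to 306.4 in those of 7d, 77.2 to 92.8 for 120d and 50.1 to 69.7 for 180d. The 3 measured B cell markers (BANK1, CD22 and RALGPS2) all rose, against 13.8% of host genes, with a sum of 20.9 to 31.1 at 1d and 78.5 to 106.2 at 180d. The erythroid sum was higher at 7d than at 1d. The AFDN circRNA had a lower mean at 7d than at 1d, a difference that was not called (adjusted p = 0.349 by edgeR). The part of these cell types in the levels of the ERBIN and AFDN circRNAs was not tested.

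**Figure D5:**
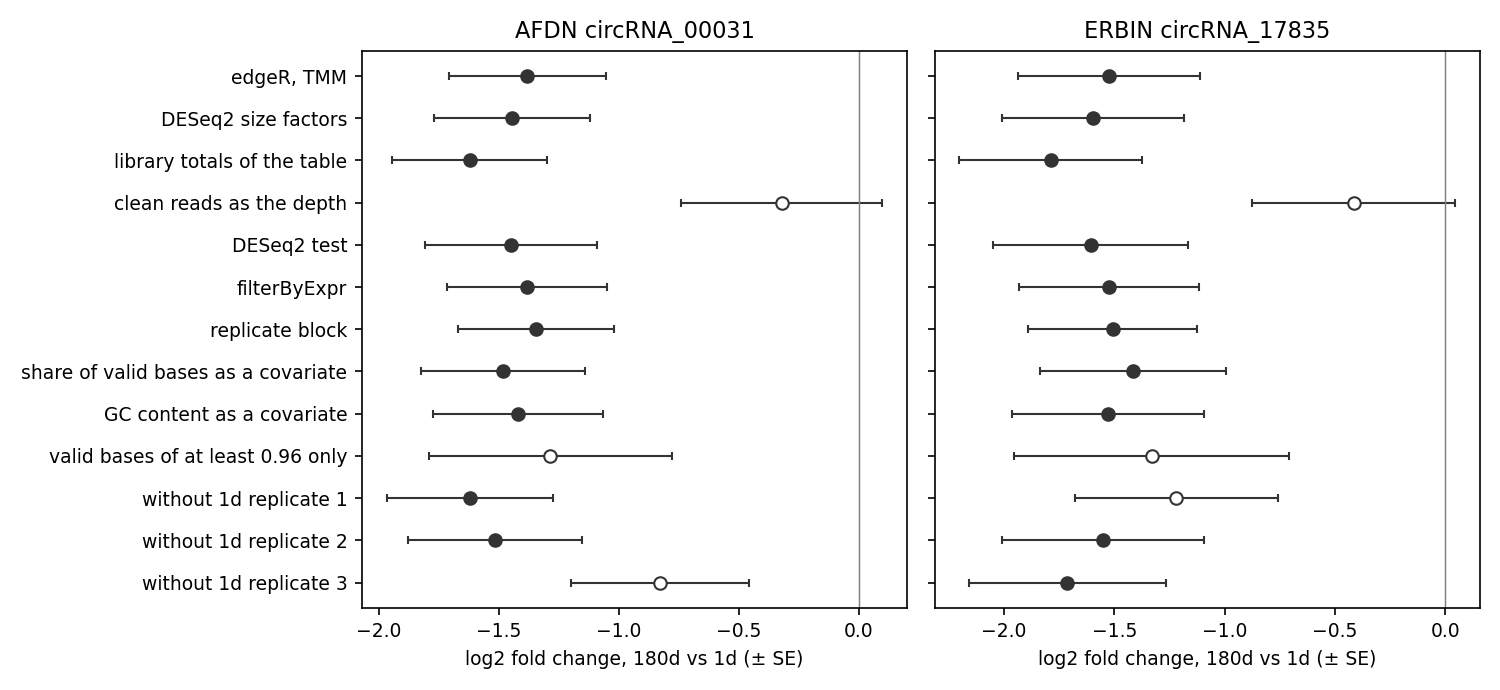
Log2 fold change between 180d and 1d (± SE) of AFDN circRNA_00031 and ERBIN circRNA_17835 under the main settings (top) and 12 alternatives; filled points passed the threshold and open points did not. Both are below 0 under every setting drawn, and both lose the call with clean reads as the depth and with only the libraries of at least 0.96 valid bases, where 1 library of 180d is left. circRNA_00031 also loses it without 1d replicate 3, and circRNA_17835 without 1d replicate 1.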

How the data were processed

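Spleen RNA of 24 pigs was depleted of ribosomal RNA and sequenced. The study's methods name TRIZOL, RNase R digestion and a NEBNext kit, whereas the labels give Qiagen RNeasy columns and an Illumina stranded kit (TruSeq, Ribo-Zero Gold). The submitters' processing notes name FastQC, cutadapt and TopHat2. The reads were mapped to Sscrofa11.1 by the authors and circRNAs were called with CIRI2 on BWA alignments. The deposited values are raw counts of back-splice reads per circRNA and library. The deposited table holds 3000 circRNAs, and the rule that chose them is not given in the sources used here, so its totals are not the sequencing depth.

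From the counts, edgeR 4.0.16 (R 4.3.3) was fitted over all 24 libraries with TMM factors and a robust quasi-likelihood fit, without a filter, for a slope on log2 age, for the 8 stages together and for 28 pairs of stages. Counts were also summed per host gene, 6 circRNAs with more than 1 host gene left out. Adjusted p under 0.05 was called, and for pairs also a change of at least 2-fold, the thresholds of the study. DESeq2 1.42.0 was an alternative. Levels are TMM-normalized reads, and logs used a prior count of 2. Named were all members, with full statistics for those called and the 3 most abundant per gene. The members and gene lists were chosen with earlier results of these data known. The fits were tested on simulated data. Complementary intron stretches were found with BLAST 2.17.0. Replicate numbers were not treated as pairing animals across stages. Clean reads, GC content and the share of valid bases of each library were taken from the study's library table. The junction sequence of circRNA_17821 is not reported here.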

Additional observations from a re-analysis of the deposited data

How the results depend on the processing

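Of the choices tried, the depth had the largest effect on the members. With clean reads as the depth, 7 in place of 2 circRNAs were called in the slope, 8 in place of 1 over the 8 stages, 20 in place of 4 differences from 1d, and 2 in place of 4 for the host totals. Of all 3000 circRNAs, 1937 were called higher and 6 lower in the slope under that scaling. The 7 of 11 members are thus near the background. Against 1d, all circRNAs called higher and lower were 0 and 0 (7d), 85 and 0 (14d), 627 and 1 (21d) and 429 and 2 (28d). Later they were 920 and 0 (35d), 1969 and 3 (120d) and 985 and 24 (180d). Of 1670 host totals, 1252 were called higher and 0 lower at 120d, and 709 and 17 at 180d. The calls of the members against 1d are therefore not read as particular to them. The share over all circRNAs in the test of the 8 stages is not given for that scaling. The slope of circRNA_00031 was then 0.032 (adjusted p = 0.601) and its difference between 180d and 1d -0.32, with 0.311 at 120d. The AFDN total had a slope of 0.032, with 0.070 at 35d and 0.310 at 120d, circRNA_17837 a slope of 0.036, and the ERBIN total a slope of 0.221 (adjusted p = 2.09e-05), 1.89 at 120d and 0.787 at 180d. That scaling moves all circRNAs upwards, by the medians given above. The medians of all host totals under it were 0.255 in the slope, 2 at 120d and 1.3 at 180d. The ERBIN total lay below each of these medians.

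With the library totals of the table there were 2 calls over the 8 stages and 7 against 1d, and DESeq2 also gave 7. Of all 3000 circRNAs, 68 were called higher and 66 lower at 120d against 1d with library totals, and 109 and 147 at 180d. Under these scalings the small difference of the ERBIN total between 120d and 1d changed sign (-0.156 with library totals, -0.075 with DESeq2 size factors, -0.071 with DESeq2), as it did without 1d replicate 3 (-0.046) or 120d replicate 1 (-0.016), within a range of -0.046 to 0.075 when 1 library was left out. The split of all called slopes was 322 higher and 173 lower with TMM, 276 and 219 with DESeq2 size factors, and 204 and 282 with library totals. For the 8 stages with library totals, for the DESeq2 test and for the fits below, the shares over all circRNAs are not given. Counts of members called in these fits therefore have no background beside them and are not read as results about the members.

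With the 17 libraries of at least 0.96 valid bases, the log2 difference of circRNA_00031 between 180d and 1d was -1.29. That choice leaves 1 library each at 35d, 120d and 180d and 2 at 21d, so that a lone library is assumed to vary like the other stages. Adding the valid-base share to the fit, or thinning to the lowest total, left 1 call in the slope, with that of circRNA_17837 lost. Without the 1d libraries 0 slopes were called, also for the host totals, and circRNA_00031 had -0.115. Leaving out 120d or 180d left 1, and without 180d the slope of the ERBIN total was 0.00837. The permutation of ages called 1 share in place of 0.

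Leaving out 1 library at a time gave 1 to 2 calls in the slope, 0 to 2 over the 8 stages and 1 to 5 against 1d, and for the host totals 1, 0 to 1 and 0 to 5, with 0 shares called throughout. The slope of circRNA_00031 ranged from -0.199 to -0.116 and its difference at 180d from -1.62 to -0.830. The cause of these changes was not tested.

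With the replicate number as a block, circRNA_00031 had a slope of -0.176 (adjusted p = 0.000476) and 2 circRNAs were called in the slope. Same-numbered libraries did not deviate together (1 of 84 pairs with a correlation over 0.1), so no pairing by number was seen. With a median level of 6.88 normalized reads per circRNA, a weak pairing may go unseen. Depth limits the rarer ERBIN circRNAs most, such as circRNA_17791 with 0 to 4 reads in the libraries of 1d.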
